A study of Mus musculus with 2 samples.

Results

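Mt1, Mt2, Mtf1, Slc30a1, Slc39a10 and Slc39a14, 6 genes of metallothioneins and zinc transport, were measured in the gastrocnemius, a calf muscle of mixed fibre types. They were chosen by name out of the 55536 genes of the table, with their TPM (a level scaled for transcript length and library size) and their ratios between these libraries already known. Their levels and ratios are therefore a description, with no test. The samples form 1 group of 2 biological replicates of total RNA-seq, from females of the strain B6CASTF1/J, an F1 cross of C57BL/6J and CAST/EiJ mice, with no treatment named in the labels. The description gives 18 to 20 months, while the age field of the labels says not collected. Each library was made from 300 ng of total RNA by a stranded, ribosome-reduced method with ERCC spike-ins, which are synthetic control RNAs of known amount. The donor identifier is shared and the tissue samples have identifiers of their own, so it is not given whether the replicates are separate animals, and the spread between them may be technical. The deposited expected counts of genes, which are read counts estimated by RSEM, summed to 43722892 in replicate 2 and 38654555 in replicate 1. The fast fibre marker list, which marks this tissue, had all 9 genes above 1 TPM in both libraries.

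Metallothioneins are small proteins whose many cysteines hold zinc, copper and cadmium ions. When free zinc rises in a cell, the zinc finger factor encoded by Mtf1 binds metal response elements in promoters and turns on Mt1, Mt2 and the exporter gene Slc30a1. Transporters of the Slc30 family (ZnT) move zinc out of the cytosol, and those of the Slc39 family (ZIP) move it in. In skeletal muscle, Mt1 and Mt2 messenger RNAs are known to be raised in several forms of muscle wasting in rodents and by glucocorticoids.

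The coding sequences of the main transcripts of both metallothioneins are shown because the genes are similar in sequence, which bears on how reads are assigned to them. They were read from the GENCODE M21 transcripts, from the gene strand of chromosome 8, and capitals mark in-frame cysteine codons.
Mt1-201: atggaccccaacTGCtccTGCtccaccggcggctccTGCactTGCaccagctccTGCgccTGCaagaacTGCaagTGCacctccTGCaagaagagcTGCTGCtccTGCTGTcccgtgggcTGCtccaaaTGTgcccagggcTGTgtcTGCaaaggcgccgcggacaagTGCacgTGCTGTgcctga
Mt2-201: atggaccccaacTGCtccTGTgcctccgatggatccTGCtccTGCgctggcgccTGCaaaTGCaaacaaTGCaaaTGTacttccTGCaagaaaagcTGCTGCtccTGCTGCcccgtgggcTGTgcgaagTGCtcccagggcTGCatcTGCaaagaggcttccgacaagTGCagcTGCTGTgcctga
Each sequence has 186 bases, or 61 codons before the stop codon, of which 20 are cysteine codons (32.8%). In both genes 16 of these codons were TGC and 4 were TGT, and all 20 stood at the same codon positions. The sequences shared 148 bases (79.6%) when laid side by side without gaps, and the longest run of identical bases was 20. The gene-level posterior SD of the count, RSEM's own measure of how uncertainly it placed reads between genes, was 0 for Mt1 and Mt2 in both libraries.

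Mt2, on mm10 at chr8:94172664-94173568 on the plus strand, was listed at 100.5 TPM in replicate 2, against 32.16 TPM in replicate 1. Its mean was 66.3 ± 48.3 TPM (SD, n = 2), the highest of the 6 genes. Mt1, at chr8:94179082-94180327 on the same strand, was listed at 79.39 TPM in replicate 2 and 26.86 TPM in replicate 1. Both metallothioneins were thus higher in replicate 2, and Mt2 stood above Mt1 in each library. The mean of Mt1 was 53.1 ± 37.1 TPM (SD, n = 2). By mean TPM Mt2 was number 820 and Mt1 number 1057 among protein-coding genes. The ratio of Mt2 to Mt1 in TPM was 1.27 in replicate 2 and 1.20 in replicate 1. In expected counts, which are not divided by length, that ratio was 1.00 in replicate 2, with 1204 counts for Mt2 and 1199 for Mt1, and 0.944 in replicate 1.

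Mtf1, the metal-sensing factor, at chr4:124802104-124849800 on the plus strand, was listed at 4.88 TPM in replicate 2 and 5.53 TPM in replicate 1. Slc30a1 encodes ZnT1, the zinc exporter of the plasma membrane. The gene lies at chr1:191906767-191913247 on the plus strand, and was listed at 3.59 TPM in replicate 2 and 3.08 TPM in replicate 1. Slc39a14 encodes ZIP14, an importer of zinc that also carries iron and manganese and is induced by interleukin 6 in mouse liver. It lies at chr14:70303469-70351425 on the minus strand and was listed at 5.83 TPM in replicate 2 and 3.64 TPM in replicate 1. Slc39a10 encodes ZIP10, a zinc importer that Mtf1 represses in mouse cells. This gene, at chr1:46807544-46892852 on the minus strand, was listed at 1.74 TPM in replicate 2 and 2.59 TPM in replicate 1. The means were 5.21 ± 0.460 TPM for Mtf1, 4.74 ± 1.55 TPM for Slc39a14, 3.34 ± 0.361 TPM for Slc30a1 and 2.17 ± 0.601 TPM for Slc39a10 (SD, n = 2 each). Mtf1 and Slc39a14 overlapped, since Slc39a14 was above Mtf1 in replicate 2 and below it in replicate 1. Slc30a1 overlapped with neither Mtf1 nor Slc39a10, and its value in each library was below that of Slc39a14 in the same library. Each metallothionein was above all 4 other genes in both libraries.

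**Figure D1:**
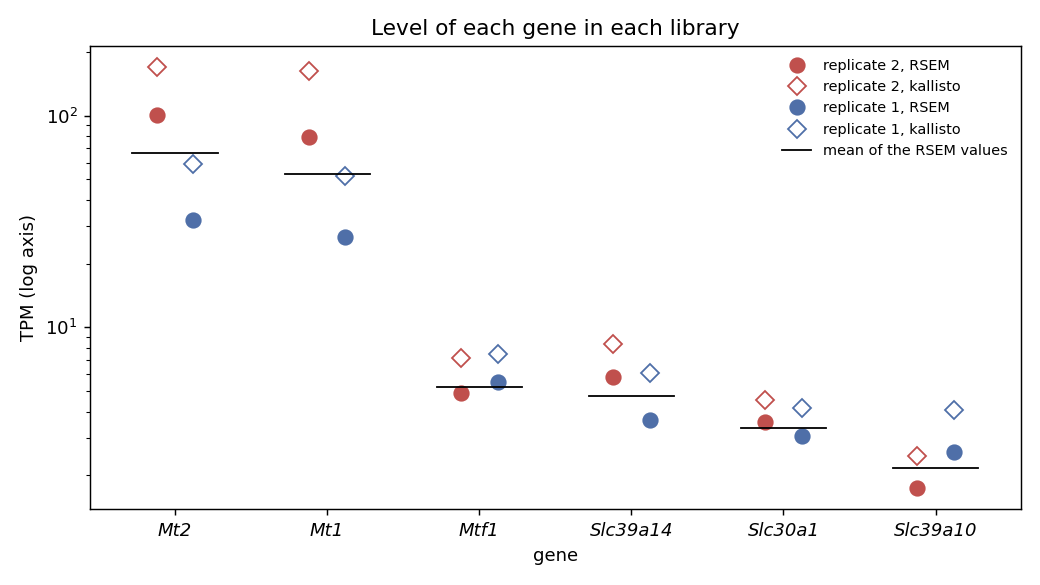
Level of each of the 6 genes in TPM, on a log axis, with replicate 2 left of replicate 1; filled circles are RSEM values, open diamonds kallisto values, and the line is the mean of the 2 RSEM values. Mt2 reached 100.5 TPM in replicate 2 and 32.16 TPM in replicate 1, and the kallisto values of every gene lie above its RSEM values.

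For the comparison between libraries, expected counts were scaled by TMM and set as the log2 ratio of replicate 2 over replicate 1. Intervals at 95% are exact binomial intervals for counting error alone. They treat every read as its own molecule, which cannot be checked without molecular identifiers. Mt1 had 1199 counts in replicate 2 and 355 in replicate 1, a log2 ratio of 1.72, or 3.30-fold (2.94 to 3.74). Mt2 had 1204 counts in replicate 2 and 335 in replicate 1, a log2 ratio of 1.81, or 3.51-fold (3.12 to 3.99). These neighbouring genes were both past 2-fold higher in replicate 2, and their intervals overlapped. The summed TPM of the pair was 179.89 in replicate 2 and 59.02 in replicate 1. In bulk muscle, fewer cells of a type and less RNA per cell cannot be told apart.

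Slc39a14 had 618 counts in replicate 2 and 314 in replicate 1, a log2 ratio of 0.94, or 1.92-fold (1.68 to 2.22), which did not reach 2-fold. Slc30a1 had 408 counts in replicate 2 and 326 in replicate 1, a log2 ratio of 0.29, or 1.22-fold (1.06 to 1.42). The exporter was thus higher in replicate 2 by much less than the metallothioneins. Slc39a10 had 267 counts in replicate 2 and 321 in replicate 1, a log2 ratio of -0.29, or a fold of 0.816 (0.690 to 0.961). It was the 1 gene of the 6 with a ratio below 0. Mtf1 had 962 counts in replicate 2 and 937 in replicate 1, a log2 ratio of 0.01, or 1.01-fold (0.918 to 1.10). The interval of Mtf1 holds 1, and its ratio was below 0 with spike-in totals or total counts as the scaling. With a summed count of at least 500 it was -0.00096.

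**Figure D2:**
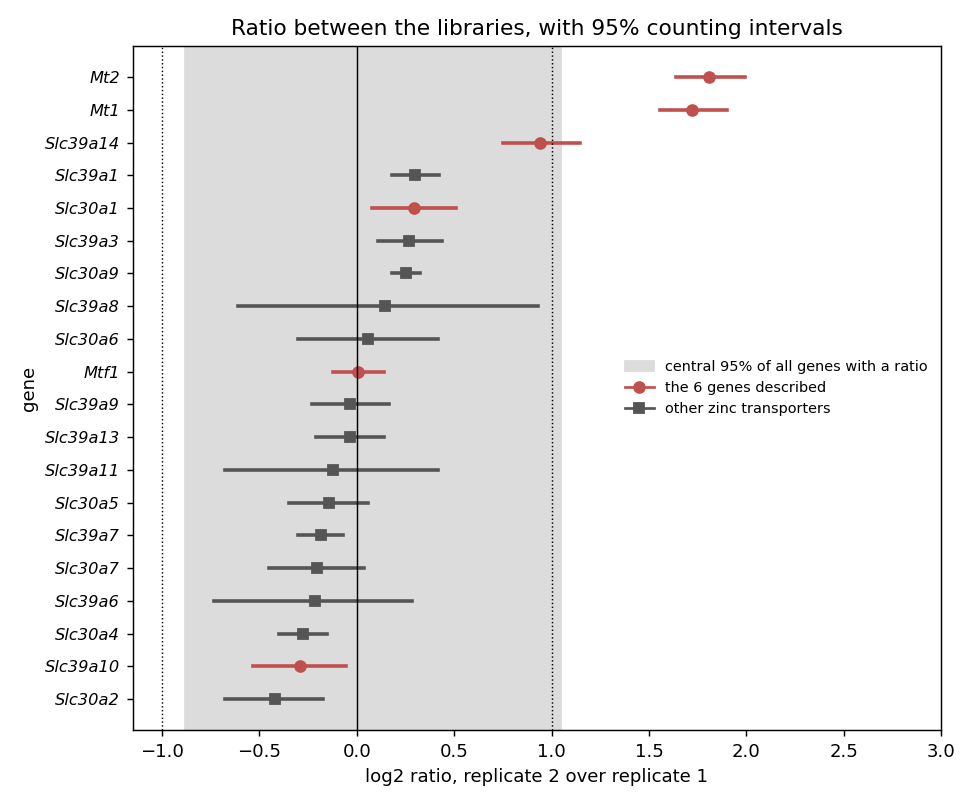
Log2 ratio of replicate 2 over replicate 1 for the 6 genes (red circles) and the 14 other zinc transporters with a ratio (grey squares); bars are 95% counting intervals, the shaded band is the central 95% of all genes with a ratio, and dotted lines mark 2-fold. Mt2 at 1.81 and Mt1 at 1.72 lie beyond the band, whose upper edge is 1.05, and Slc39a14 at 0.94 lies just inside it.

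All 6 genes passed the filter of at least 50 counts summed over the libraries, as did 12969 genes in all. Of the 6, 2 were at least 2-fold higher and 0 at least 2-fold lower in replicate 2. Among the 12969 genes, 602 (4.64%) were past 2-fold, of which 350 (2.7%) were higher and 252 (1.94%) lower. These shares are given as background only, since the same ratios were known when the genes were chosen. With spike-in totals as the scaling the split was 244 higher and 440 lower, and with total counts it was 273 higher and 350 lower. Mt1 and Mt2 stayed past 2-fold under both. The median log2 ratio of all 12969 genes was -0.22 with spike-in totals and -0.15 with total counts. Lower values of a list under these scalings are therefore not particular to the list. The median log2 ratio of the 6 genes was 0.62, with 5 above 0, against 0.40 with spike-in totals, where 4 were above 0. The count above 0 was also 4 with total counts or with a summed count of at least 500. In all, 86.3% of all genes with a ratio lay within 1.5-fold. Ranked from the highest ratio, Mt2 was number 95, Mt1 number 109 and Slc39a14 number 405. Slc30a1 was number 2366, Mtf1 number 6305 and Slc39a10 number 10819.

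**Figure D3:**
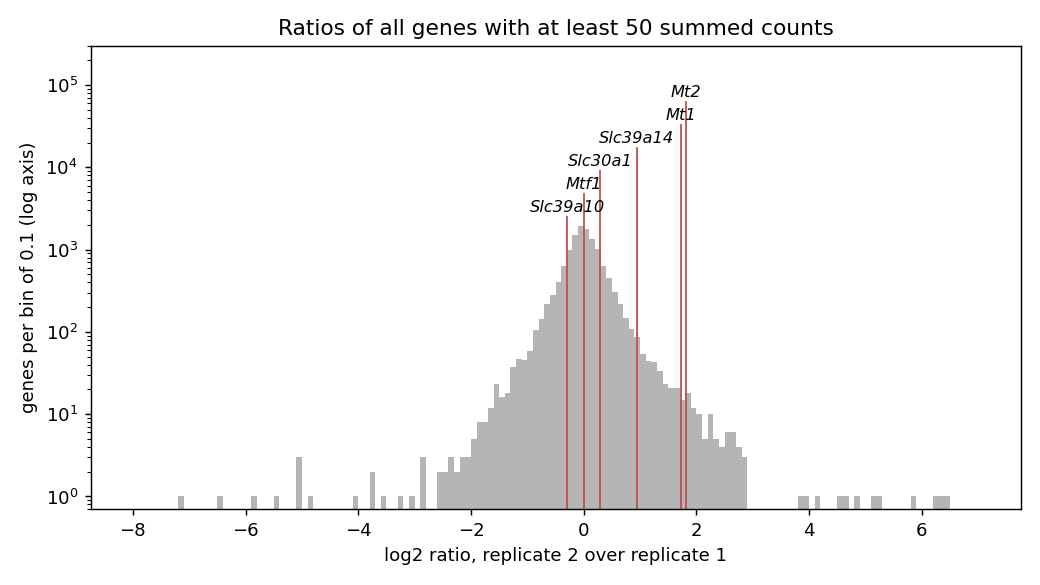
Distribution of the log2 ratio of replicate 2 over replicate 1 over the 12969 genes with at least 50 summed counts, in bins of 0.1 with a log count axis; red lines mark the 6 genes. Mt1 and Mt2 stand in the upper tail, with 0.833% and 0.725% of the genes above them, and Mtf1 stands near the centre.

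The level of the metallothioneins depended on the tool that made it. The deposited kallisto table gave Mt1 162.85 TPM in replicate 2 and 52.09 TPM in replicate 1, a mean of 107 ± 78.3 TPM (SD, n = 2). It gave Mt2 169.67 TPM in replicate 2 and 59.33 TPM in replicate 1, a mean of 115 ± 78.0 TPM (SD, n = 2). The kallisto TPM of Mt1 was thus 2.05 times its RSEM TPM in replicate 2 and 1.94 times in replicate 1, although kallisto gave Mt1 fewer counts, 1102 in replicate 2 and 281 in replicate 1. The effective length of Mt1-201, by which counts are divided to give TPM, was 450 bases by RSEM in both libraries, against 214 bases in replicate 2 and 207 bases in replicate 1 by kallisto. The kallisto effective length of Mt1-201, a transcript of 549 bases, was thus 0.476 of that of RSEM in replicate 2 and 0.459 in replicate 1, while for the long Mtf1-202, of 7554 bases, it was 0.968 in replicate 2 and 0.967 in replicate 1. Kallisto TPM of Mtf1 was 7.13 in replicate 2 and 7.48 in replicate 1. Both metallothioneins were past 2-fold by kallisto as well, with a log2 ratio from kallisto counts of 1.94 for Mt1 and 1.80 for Mt2.

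Within each gene, the tools divided reads among 29 annotated transcripts. Mt1-201, of 3 exons, held 98.0% of the RSEM TPM of Mt1 in replicate 2 and 98.6% in replicate 1, and by kallisto it held 98.9% and 99.2% in replicates 2 and 1. For Mt2 the tools differed. RSEM gave Mt2-201 a share of 62.2% in replicate 2 and 57.5% in replicate 1, and the shorter Mt2-202, of 388 bases, a share of 37.8% in replicate 2 and 42.5% in replicate 1. Kallisto gave Mt2-201 100% in both libraries and listed Mt2-202 at 0. The posterior SD of the RSEM count of Mt2-202 was 36.44 around 359.94 counts in replicate 2 and 21.08 around 114.49 counts in replicate 1. The division of Mt2 between its transcripts therefore cannot be settled from these tables, while the RSEM gene count is not affected by it. The RSEM gene TPM of Mt2, and so its TPM ratio to Mt1, does depend on the division. The RSEM effective length was 412 bases for Mt2-201 and 289 bases for Mt2-202. Kallisto gave the Mt2 gene fewer counts than RSEM, 945 in replicate 2 and 265 in replicate 1.

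Mtf1-202, of 12 exons, held 78.9% of the RSEM TPM of Mtf1 in replicate 2 and 76.4% in replicate 1. Mtf1-204, annotated as a retained intron, held 14.8% in replicate 2 and 14.6% in replicate 1 by RSEM, and 4.57% and 5.41% in replicates 2 and 1 by kallisto. The RSEM shares of Mtf1-204 rest on 16.14 counts in replicate 2 and 15.97 in replicate 1, and the kallisto shares on 4.43 and 4.48 counts in replicates 2 and 1. Mtf1-203 held 5.33% in replicate 2 and 7.04% in replicate 1 by RSEM, and 25.4% and 16.7% in replicates 2 and 1 by kallisto. Its RSEM counts were 4.65 in replicate 2 and 6.00 in replicate 1, and its kallisto counts 16.57 and 9.21 in replicates 2 and 1. On Slc30a1 the tools were close. Its longer transcript Slc30a1-201 held 63.2% in replicate 2 and 67.5% in replicate 1 by RSEM, and 62.8% and 65.9% in replicates 2 and 1 by kallisto.

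Slc39a10-201 held 84.6% of the RSEM TPM of Slc39a10 in replicate 2 and 74.9% in replicate 1. The remainder shifted between short transcripts that rest on few reads, with Slc39a10-204 at 0 counts in replicate 2 and 6.41 counts in replicate 1. The retained-intron transcript Slc39a10-202 held 2.29% in replicate 2 and 6.95% in replicate 1 by RSEM, and 31.6% and 22.2% in replicates 2 and 1 by kallisto. Slc39a14 has 13 annotated transcripts, 8 of them protein coding and 5 retained introns. Slc39a14-202 held 58.2% of its RSEM TPM in replicate 2 and 53.8% in replicate 1, and the retained introns together held 17.2% in replicate 2 and 12.1% in replicate 1 by RSEM, and 11.2% and 11.8% in replicates 2 and 1 by kallisto. In unscaled RSEM counts Slc39a14-202 had 536.98 of the 618 of the gene in replicate 2 and 273.78 of 314 in replicate 1. As it holds most counts of the gene, its direction is not separate from that of the gene.

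**Figure D4:**
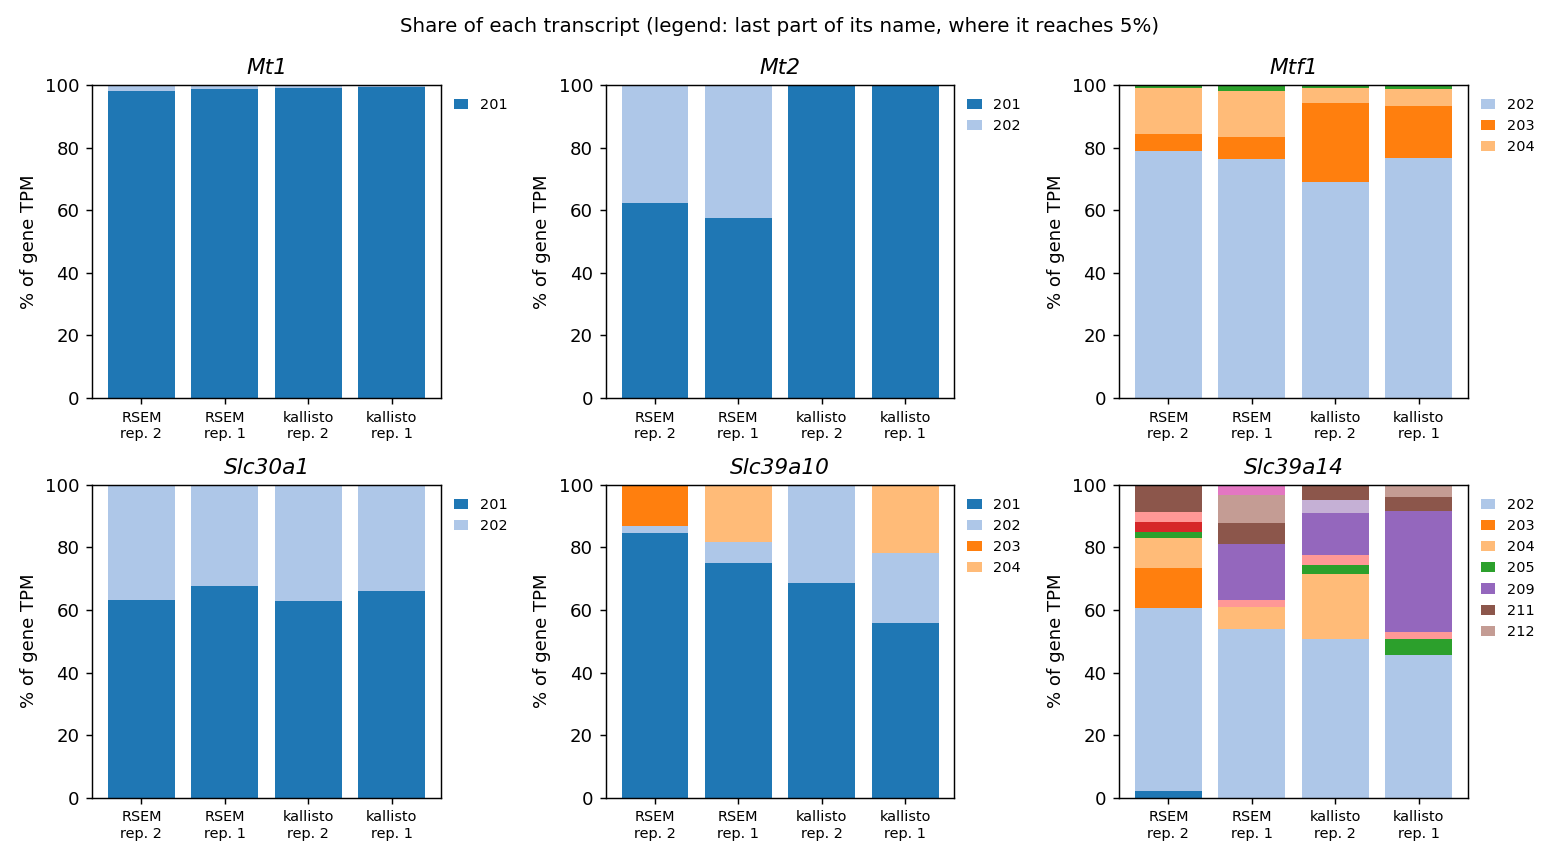
Share of each transcript in the TPM of its gene, in percent, by RSEM and by kallisto, with replicate 2 left of replicate 1 for each tool; colours are transcripts, named where they reach 5%. Mt1 is nearly all Mt1-201 in every bar, while Mt2-202 takes 37.8% and 42.5% of Mt2 by RSEM and nothing by kallisto.

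The promoters of Mt2, Mt1 and Slc30a1 are shown because these genes are known targets of the factor encoded by Mtf1 and their windows held matches to the core of the metal response element. The windows are from RefSeq on GRCm38.p6 and run from 250 bases before to 50 bases after the RefSeq start, on the strand of the gene. The core was searched as TGCGCNC or TGCACNC on both strands, and no matches overlapped in the windows shown. Capitals mark the matches, and those on the other strand read as their reverse complement.
Mt2, chr8:94172368-94172667, plus strand: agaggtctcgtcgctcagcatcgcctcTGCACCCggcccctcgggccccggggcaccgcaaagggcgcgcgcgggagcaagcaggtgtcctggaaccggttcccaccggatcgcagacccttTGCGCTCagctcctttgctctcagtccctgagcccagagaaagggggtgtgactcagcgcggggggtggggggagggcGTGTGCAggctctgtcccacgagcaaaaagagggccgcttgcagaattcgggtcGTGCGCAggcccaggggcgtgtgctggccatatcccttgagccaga
Mt1, chr8:94178839-94179138, plus strand: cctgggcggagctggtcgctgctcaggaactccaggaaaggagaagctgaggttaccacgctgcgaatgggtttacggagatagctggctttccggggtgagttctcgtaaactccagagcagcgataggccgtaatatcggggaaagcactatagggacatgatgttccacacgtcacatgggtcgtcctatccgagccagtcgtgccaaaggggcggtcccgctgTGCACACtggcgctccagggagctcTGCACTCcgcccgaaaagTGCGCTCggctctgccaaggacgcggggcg
Slc30a1, chr1:191906531-191906830, plus strand: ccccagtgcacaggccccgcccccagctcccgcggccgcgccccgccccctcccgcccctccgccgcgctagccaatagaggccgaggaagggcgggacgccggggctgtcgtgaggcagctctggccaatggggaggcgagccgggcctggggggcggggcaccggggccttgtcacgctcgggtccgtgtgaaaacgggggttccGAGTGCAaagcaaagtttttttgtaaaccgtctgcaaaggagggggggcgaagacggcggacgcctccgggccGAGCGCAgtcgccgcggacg
Mt2 held 4 matches, with first bases at -223 and -128 on the gene strand and at -50 and 5 on the other strand, counted from 1 at the RefSeq start. Mt1 held 3 matches on the gene strand, at -23, 3 and 21. Mt1-202 and Mt1-203 have annotated starts at 94179241 and 94179211, past the end of the Mt1 window, so the 3 matches are those of this window alone. Slc30a1 held 2 matches on the other strand, at -43 and 31. Mt2-202 and Slc30a1-202 have annotated starts at 94172860 and 191907256, also past the ends of their windows. Mt2-201 starts at 94172664, after the Mt2 match at 5. The windows thus follow the RefSeq starts and not the starts of these transcripts. Among 32851 windows of the same length, 25.7% held at least 1 match, 7.11% at least 2, 1.97% at least 3 and 0.517% at least 4. The windows were rich in G and C, at 67.7% for Mt2, 60.7% for Mt1 and 73.0% for Slc30a1, and the share for windows of matched composition was not computed. The window of Mtf1 and both windows of Slc39a10 held 0 matches. The annotated starts of their main transcripts, at 124802104 for Mtf1-202 and 46854046 for Slc39a10-201, lie outside these windows. The sequence around those starts was therefore not fully searched. Of the 6 genes 5 had a window in the table. Among the other zinc transporters and metallothioneins, 12 of the 20 with a window held a match, and 2 of them, Slc30a4 and Slc30a10, held 3 or more. These are counts of genes, each by its window with the most matches, while the shares above are of single windows, so they are not like measures. Slc30a4 had a log2 ratio of -0.28 and Slc30a10 had no counts. A match is a string of letters and does not show binding.

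**Figure D5:**
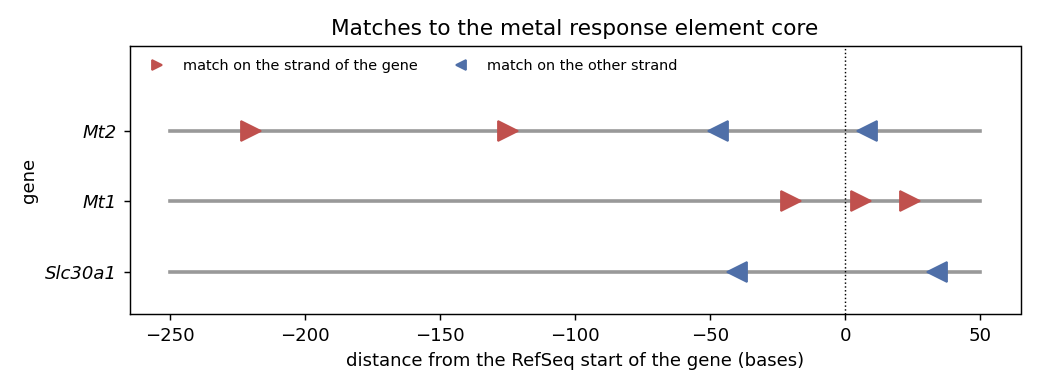
Positions of matches to the metal response element core in the windows of Mt2, Mt1 and Slc30a1, in bases from the RefSeq start (dotted line); triangles to the right are matches on the strand of the gene and triangles to the left are matches on the other strand. The 4 matches of Mt2 spread over the window, and the 3 of Mt1 lie within 30 bases of its RefSeq start.

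Mt2 and Mt1 lie side by side with 5513 bases between them and no other annotated gene in the gap. Mt3, a metallothionein best known from brain, lies 18517 bases to the left of Mt2 and had 11 counts in replicate 2 and 12 in replicate 1. On the right of Mt1, the lincRNA gene Gm39228 had no counts. Thus of the 3 metallothionein genes of the cluster with counts, Mt1 and Mt2 were past 2-fold and Mt3 was too low for a ratio. Mt4, a metallothionein of stratified epithelia, had no counts in either library. The antisense gene Gm45774 overlaps Mt2 and had 22 counts in replicate 2 and 25 in replicate 1. Whether counting used strand is not given in the sources used here, so reads of Mt2 and Gm45774 may have been mixed. Around Mtf1, Inpp5b and Yrdc had log2 ratios of -0.03 and 0.20, and 1110065P20Rik, on the opposite strand and overlapping its end, had 188 counts in replicate 2 and 181 in replicate 1. The antisense gene 1700034H15Rik overlaps Slc30a1 and had 4 counts in each library. The nearest genes beyond Slc30a1 on either side, Nek2 and Rd3, had 19 and 0 counts in replicate 2, against 14 and 2 counts in replicate 1. Gm28151, a lincRNA gene within Slc39a10 on the same strand, had 5 counts in replicate 2 and 15 in replicate 1. The nearest genes beyond Slc39a10 on either side, Dnah7c and Gm28527, and beyond Slc39a14, Gm4240 and Gm9174, had at most 2 counts in a library.

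Beside the 3 described there were 21 zinc transporters in the lists. Of these, 11 were at 1 TPM or more in both libraries, 14 passed the count filter and have a ratio, and 0 of the 14 were past 2-fold in either direction. Their log2 ratios were above 0 for 5 genes and below 0 for 9, with a median of -0.08. With spike-in totals 3 were above 0 and the median was -0.30, and with total counts 4 were above 0 and the median was -0.22. The medians of all genes with a ratio were -0.22 with spike-in totals and -0.15 with total counts. Their summed TPM was 124.77 in replicate 2 and 136.43 in replicate 1, against 179.89 in replicate 2 and 59.02 in replicate 1 for Mt1 and Mt2. Slc30a9, a transporter of mitochondria, was the most abundant at 52.54 TPM in replicate 2 and 53.77 TPM in replicate 1, with a log2 ratio of 0.25. Slc39a7, which releases zinc from the endoplasmic reticulum and Golgi, was listed at 17.96 TPM in replicate 2 and 23.00 TPM in replicate 1, with a log2 ratio of -0.19. Slc39a1, an importer of the plasma membrane, was listed at 17.02 TPM in replicate 2 and 15.31 TPM in replicate 1, with a log2 ratio of 0.30. These 3 genes lay above every zinc transporter of the 6 in both libraries. Slc39a13, Slc30a4 and Slc39a3, at means of 9.48, 6.77 and 5.76 TPM, had log2 ratios of -0.03, -0.28 and 0.27. Slc30a8, Slc30a10 and Slc39a5 had no counts, where a floor of 3 counts is 0.0686 CPM in replicate 2 and 0.0776 CPM in replicate 1.

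The genes linked to Mtf1 in mouse, a list of 9 that holds 4 of the 6 genes, had 5 ratios above 0 and a median log2 ratio of 0.20, which was -0.02 with spike-in totals as the scaling. Mt1 and Mt2 were the only ones of the 9 past 2-fold. The list holds Slc39a10, which Mtf1 represses, beside genes that it turns on, so the median does not describe 1 direction. Selenow, a selenoprotein abundant in muscle, was listed at 804 TPM in replicate 2 and 776 TPM in replicate 1, with a log2 ratio of 0.20. The copper-handling genes, whose products carry the other metal that metallothioneins bind, had 3 ratios above 0 and 3 below. Their median was 0.005 and none was past 2-fold. With spike-in totals 1 was above 0 and the median was -0.22, as it was for all genes with a ratio. Cox17 and Atox1, copper chaperones, had log2 ratios of 0.23 and -0.04.

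Among 9 targets of glucocorticoids, a class of hormone that also raises metallothionein messenger RNA, 7 had a ratio above 0 and 3 were past 2-fold higher, and the median was 0.50 on the log2 scale. With spike-in totals 6 were above 0, 2 were past 2-fold higher and 1 past 2-fold lower, and the median was 0.28. Tsc22d3 and Sgk1, the most abundant of the list by mean TPM, had log2 ratios of 0.69 and -0.36. Ddit4, an inhibitor of mTORC1, was listed at 88.63 TPM in replicate 2 and 6.40 TPM in replicate 1, a log2 ratio of 3.93. Cebpd, a transcription factor, was at 1.61 and Klf15, a regulator of fasting metabolism, at 1.00. Klf15 did not stay past 2-fold with spike-in totals, total counts or a summed count of at least 500. Fkbp5, a co-chaperone that is also a standard target, went the other way, at 40.61 TPM in replicate 2 and 79.85 TPM in replicate 1, a log2 ratio of -0.82. The list thus did not share 1 direction. Of 8 genes of interleukin 6 signalling with a ratio, 6 were above 0 with a median of 0.13, against 3 above 0 and a median of -0.09 with spike-in totals. Il6st and Cebpb, the most abundant of the list, had log2 ratios of -0.34 and 0.55. Past 2-fold higher were 2 genes, of which Socs3, a feedback inhibitor, was at 1.29 and Cebpd, shared with the glucocorticoid list, at 1.61. Il6 itself had 3 counts in replicate 2 and 0 in replicate 1. All 7 genes of the Nrf2 list, an oxidative stress response that can also induce metallothioneins, had a ratio below 0, with a median of -0.31 and none past 2-fold, and 6 of the 7 were below 0 by kallisto counts. With spike-in totals the median was -0.53, where that of all genes with a ratio was -0.22. Txnrd1 and Nfe2l2, the most abundant of the list, had log2 ratios of -0.31 and -0.34.

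With 2 libraries a pattern is 1 ratio, so likeness to Mt1 or Mt2 was taken as the absolute difference of log2 ratios over the 6640 protein-coding genes at a mean of 5 TPM or more. The nearest to Mt1 were Casq2, a calsequestrin of slow and cardiac muscle, at 1.74, Mup22 at 1.70, and the collagen gene Col1a1 at 1.70. Mup22 belongs to a family of near-identical copies, and how its reads were divided among them was not examined here. The nearest to Mt2 were Myom3, a myomesin of the sarcomere, at 1.82, Pdk4, a brake on pyruvate oxidation, at 1.83, and Ldhb, the heart-type lactate dehydrogenase subunit, at 1.83. Each differed from its metallothionein by 0.01 to 0.02. The counting intervals, 2.94 to 3.74-fold for Mt1 and 3.12 to 3.99-fold for Mt2, are much wider than such differences. Which genes come out nearest is therefore not resolved by these counts.

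Several marker lists differed between the same libraries. The 8 slow fibre genes were all past 2-fold higher in replicate 2. Their median was 2.60 on the log2 scale, with a summed level of 2425.73 TPM in replicate 2 and 450.79 TPM in replicate 1. Of the 8 genes of fibro-adipogenic cells, 7 were above 0 and 3 past 2-fold higher, with a summed level of 469.98 TPM in replicate 2 and 447.77 TPM in replicate 1. Of the 9 fast fibre genes 5 were above 0 and 1 past 2-fold higher, and they summed to 79736 TPM in replicate 2 and 87698 TPM in replicate 1. Of 8 endothelial genes 3 were above 0 and 0 past 2-fold, and they summed to 59.43 TPM in replicate 2 and 75.12 TPM in replicate 1. Of 8 macrophage genes 5 were above 0 and 1 past 2-fold lower, or 0 by kallisto counts, with sums of 31.12 TPM in replicate 2 and 35.82 TPM in replicate 1. All 6 adipocyte genes with a ratio were above 0 and none past 2-fold, with sums of 126.11 TPM in replicate 2 and 112.00 TPM in replicate 1. Of 5 erythrocyte genes 3 were above 0 and 0 past 2-fold, with sums of 407 TPM in replicate 2 and 415 TPM in replicate 1. With spike-in totals as the scaling 1 fast fibre, 1 endothelial, 5 fibro-adipogenic, 4 macrophage, 5 adipocyte and 1 erythrocyte gene were above 0, and all 8 slow fibre genes stayed past 2-fold higher. There, 1 endothelial gene was past 2-fold lower and 2 fibro-adipogenic genes were past 2-fold higher, as with total counts. The median log2 ratio of all genes was itself -0.22 with spike-in totals, so lower counts there are not particular to these lists. None of the defining markers of slow fibres was at 0 in either library. The part of the slow fibre difference, or of any other list, in the ratios of Mt1, Mt2 and Slc39a14 was not tested.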

How the data were processed

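Total RNA-seq was analysed from 2 libraries of 1 group, grouped by the labels. Per the file headers, the expected counts and TPM of genes and transcripts were made by the authors with RSEM, and a further deposited table holds the estimated counts and TPM of kallisto. The build mm10 and GENCODE M21 are named in notes deposited beside the tables. Which aligner and tool versions were used was not given in the sources used here. FPKM and the interval columns were not used.

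Expected counts were rounded and scaled with TMM in edgeR 4.0.16 (R 4.3.3), keeping genes whose counts summed to 50 or more, and the log2 CPM (prior count 2) of replicate 2 minus that of replicate 1 is the log2 ratio. Of the table rows, 26249 were tRNA or phiX rows, with 2 counts in replicate 2 and 1 in replicate 1, and stayed out of library sizes, as did the spike-ins (0.776% of TPM in replicate 2 and 0.741% in replicate 1). With 1 library against 1, no test was made and no p-value is given, and called means past 2-fold. Shares of transcripts were computed from TPM and kallisto values summed per gene. The biological coefficient of variation from edgeR was 0.194 over 14223 genes.

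The members and lists were chosen with earlier results of these data known. Genes named beside the 6 are zinc transporters at a mean of 5 TPM or more, the top and the past 2-fold genes of the signalling lists, the nearest ratios and the nearest annotated genes. Fkbp5, Il6 and the transporters with no counts were added after their values were seen. Marker lists are given as counts of genes and summed TPM, with a median log2 ratio for the slow fibre list. The steps were tested on simulated data. Alternatives were other scalings (DESeq2 1.42.0, spike-ins, total counts), count filters, prior counts, estimates and leaving out each library. Promoter windows were RefSeq's. Python 3.11.15 did the rest.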

Additional observations from a re-analysis of the deposited data

How the results depend on the processing

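No gene of the 6 changed side of the 2-fold threshold under any scaling, filter, prior count or count estimate. Mt1 and Mt2 stayed past it throughout, and the sign changed for Mtf1 only. Scaling by spike-in totals moved the median of all genes by -0.22, and gave log2 ratios of 1.50 for Mt1, 1.59 for Mt2, 0.72 for Slc39a14, 0.071 for Slc30a1 and -0.21 for Mtf1, with 440 genes at least 2-fold lower. Total counts without a TMM factor gave -0.14 for Mtf1, and kallisto counts gave 1.94 for Mt1. Without a count filter 1090 genes were at least 2-fold higher and 1622 lower, and with a summed count of at least 500 there were 147 higher and 47 lower. Kallisto gave mean TPM of 107 for Mt1, 7.31 for Mtf1, 4.34 for Slc30a1, 3.27 for Slc39a10 and 7.22 for Slc39a14, and shares of 99.1% for Mt1-201, 100% for Mt2-201, 72.8% for Mtf1-202, 62.2% for Slc39a10-201 and 48.2% for Slc39a14-202. The effective lengths of kallisto were shorter, and the tools also divided counts differently among transcripts. In replicate 2, Mt2-202 had 359.94 counts by RSEM and 0 by kallisto. The cause of the differences was not tested. Leaving out a library leaves the other library's value, as given for each gene. No paired analysis was possible because there is 1 group. Ratios of genes near the count filter rest on few reads.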
